A study of Mus musculus with 8 samples.

Results

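The comparison described here is pancreas from mice that carry the BDC2.5 transgene against pancreas from mice that do not, taken over 2 genetic backgrounds together, so that it asks which genes move with the transgene whether or not the mice also carry scid. It uses all 8 arrays of the series: 4 whose titles name BDC2.5 and 4 whose titles do not. There were 4 groups of 2 arrays, all from mice 3 weeks old: the controls NOD and NOD.scid, and the transgenic groups, named BDC2.5/NOD for NOD mice with the transgene and BDC2.5/NOD.scid for those that also carry scid. All mice were NOD, so the controls carry every NOD risk allele as well. Per the labels, whole-pancreas RNA from 2 isolations, with 6 animals in each, was combined into a pool, and labelling started from about 10 ug of it. The labels do not say whether the 2 arrays of a group hold separate pools, so p-values measure only how far these arrays scatter, and that scatter may be technical. No source used here gives the sequences that drive the transgene or the sex of the animals.

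BDC2.5 is a T cell receptor taken from a CD4+ T cell clone that attacks insulin-producing beta cells. The NOD mouse becomes diabetic on its own through autoimmunity. The scid mutation lies in Prkdc, an enzyme needed to rearrange antigen receptor genes, so NOD.scid mice lack mature T and B cells. A receptor transgene arrives already rearranged, which lets T cells bearing it develop in scid mice, while BDC2.5/NOD mice keep other lymphocytes too. Most of the pancreas is exocrine: acinar cells make digestive enzymes, ducts carry them away, and islets of hormone cells are a small share. Acinar cells under inflammation are known for switching on Reg lectins, small secreted proteins that include bactericidal members and are induced by cytokines that act through the transcription factor STAT3. In whole-pancreas RNA, fewer cells of a type and less RNA per cell cannot be told apart.

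The arrays held 12488 probe sets, of which 66 are array controls and 12422 were tested. A probe set was called when its Benjamini-Hochberg adjusted p was under 0.05 in limma's moderated test of the transgene with scid as an additive term. By that rule 518 probe sets, or 4.17%, were called: 183 (1.47%) higher and 335 (2.7%) lower with the transgene. Of the tested probe sets 10833 carry 1 gene symbol, and taking for each symbol the probe set of highest mean gave 8251 genes. Among these genes 128 were called higher (1.55%) and 240 called lower (2.91%), and the median difference over all genes was 0.02 on the log2 scale. Every count of calls in a gene list below is to be read against these shares. Array medians ran from 4.24 to 4.30, and arrays of 1 group correlated more closely (0.9912 to 0.9961) than arrays of different groups (0.9773 to 0.9902). The middle beta-actin control read 9.26 to 9.55 on the first NOD, first NOD.scid and second BDC2.5/NOD.scid arrays and 6.95 to 7.74 on the others. It crosses the transgene groups, and with a term for it 466 probe sets were called, of which 358 are among the 518. The BioB array controls do not cross them in the same way. Their mean was 7.02 and 7.06 on the BDC2.5/NOD arrays and 5.89 to 6.44 on the others. This difference cannot be told apart from the BDC2.5/NOD group, and its part in the results was not tested. Xist, which coats the inactive X in females, read 7.26 and 4.60 on the NOD arrays, 4.19 and 5.92 on the BDC2.5/NOD.scid arrays and 3.35 to 3.72 on the other 4. The labels give no sex, and the part of this difference in the results was not tested.

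The transgene's own expression could not be read from these arrays. Of 10 probe sets for segments of the T cell receptor alpha and beta chains none was called in limma's test, with differences from -0.14 to 0.38 and a smallest adjusted p of 0.0809, while 3 had an unadjusted p under 0.05. Whether any of them reads the transgenic chains is not known here. Prkdc read 3.37 to 3.70 on all 8 arrays, and since scid is a point mutation that leaves a transcript, its level checks nothing. The pancreas label held: the acinar markers Cel and Cela1 averaged 13.1 to 13.2 on every array.

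The transgene effects in NOD and in NOD.scid rest on different arrays, so their likeness is not built in by shared samples. Within NOD 719 genes passed (8.71%), and within NOD.scid 575 passed (6.97%). The sign of the difference matched in 56.7% of all 8251 genes, in 64.3% of the genes called in NOD and in 65.6% of those called in NOD.scid. There were 166 genes called in both backgrounds, of which 137 moved the same way and 29 moved opposite ways. Those 137 genes are 19.1% of the NOD calls and 23.8% of the NOD.scid calls, so most calls of each background were not called in the same direction in the other. Among the 137, 40 were higher in both and 97 lower in both.

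A gene is termed shared here when it was called in the additive fit, when all 4 transgene arrays lay above (or below) all 4 others, and when its sign was the same in each background. By this rule 91 genes were shared and higher (1.1%) and 219 were shared and lower (2.65%). Over all genes 5.51% had all 4 transgene arrays above the others and 6.02% had all 4 below. The test of the difference between the 2 effects, the interaction, passed for 444 genes (5.38%). It passed for 31 of the 128 genes called higher (24.2%) and for 24 of the 240 called lower (10.0%). The 95% interval of that difference lay within 0.5 of zero for 46 of the 128 higher genes and 104 of the 240 lower genes, and for 51.3% of all genes. Its median half-width was 0.33, without adjustment for the number of tests, so a difference between backgrounds smaller than that was in general not detectable. Some larger differences did not pass the adjusted test either, such as -0.64 for Reg3g (adjusted p = 0.0515 in limma). Most of these 368 called genes, shared or not, changed little: the median difference was 0.48 among genes called higher and -0.47 among genes called lower, and 30 reached 1 on the log2 scale, 15 in each direction.

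**Figure D1:**
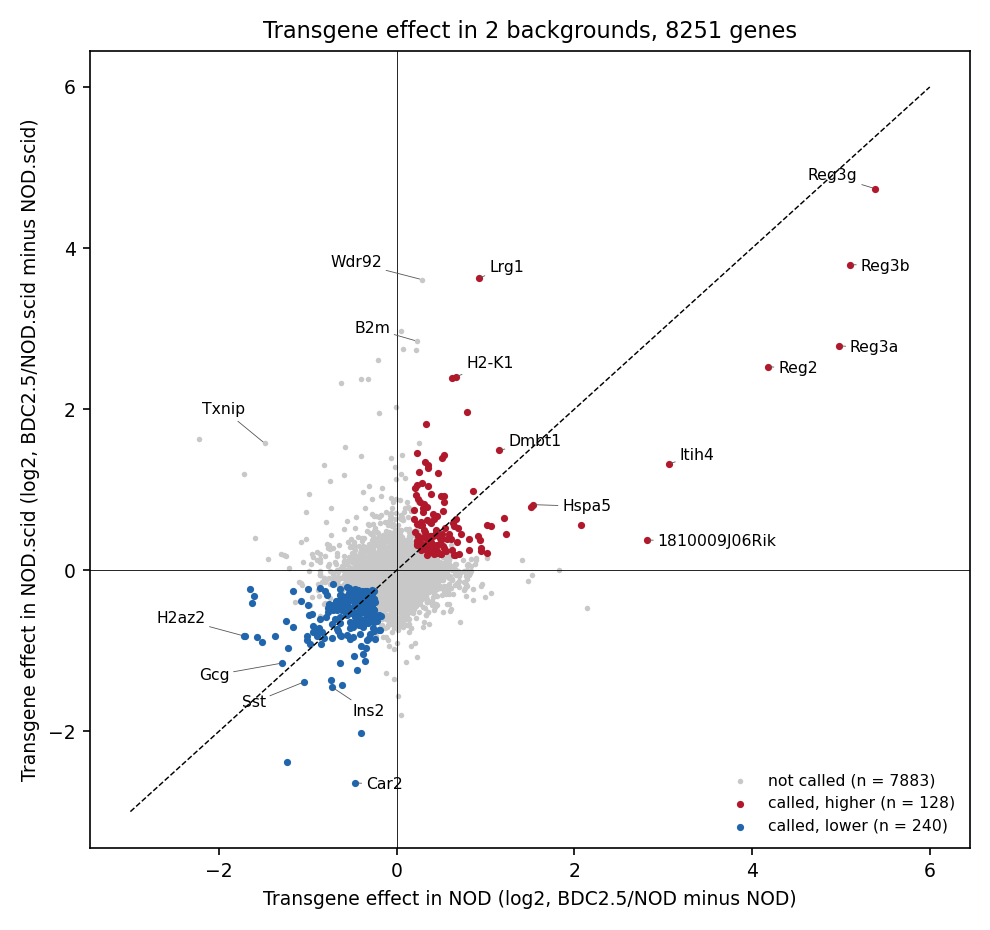
Transgene effect in NOD (x axis) against the effect in NOD.scid (y axis), both log2 differences of group means with 2 arrays a group, for 8251 genes. Red points are the 128 genes called higher and blue points the 240 called lower in the additive fit, grey points were not called, and the dashed line marks equal effects. Reg3g, Reg3b, Reg3a and Reg2 lie far from the rest at the upper right, while Lrg1, B2m and H2-K1 lie above the dashed line and Itih4 and Hspa5 below it.

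Reg3g, Reg3b, Reg3a and Reg2 had the 4 largest additive differences of all genes called. Of 5 measured Reg genes 4 were called higher, with a median difference of 3.88 over the 5, and 1 was not called. All 4 kept their call in each of the 8 fits that left out 1 array. Reg3b, Reg3a, Reg2, Reg1 and Reg3g are neighbours on chromosome 6, so the gene that was not called lies among those that were.

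Reg3g, a bactericidal lectin of gut and pancreas, read 4.87 and 4.99 on the NOD arrays, 5.18 and 5.02 on the NOD.scid arrays, 10.27 and 10.35 on the BDC2.5/NOD arrays, and 10.03 and 9.65 on the BDC2.5/NOD.scid arrays. The groups are far apart, and the lowest transgene array is well above the highest control array. The additive difference was 5.06 (SE 0.135, adjusted p = 8.36e-09 in limma), a 33.3-fold increase. It was 5.38 in NOD and 4.74 in NOD.scid, and the interaction did not pass (-0.64, 95% interval -1.01 to -0.27, adjusted p = 0.0515). A second Reg3g probe set rose by 3.63 (adjusted p = 1.84e-06 in limma).

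Reg3b, the lectin first described as pancreatitis-associated protein, read 7.79 and 7.87 in NOD and 9.09 and 9.09 in NOD.scid without the transgene, and 12.92 and 12.94 in NOD and 12.91 and 12.86 in NOD.scid with it. The 4 transgene arrays reached nearly the same level although NOD.scid started higher than NOD. The additive difference was 4.45 (SE 0.213, adjusted p = 1.84e-06 in limma), a 21.8-fold increase made of 5.10 in NOD and 3.80 in NOD.scid. The interaction passed (-1.31, adjusted p = 1.5e-05).

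Reg3a behaved in the same way: 6.72 and 6.58 in NOD and 8.47 and 8.37 in NOD.scid without the transgene, and 11.56 and 11.70 in NOD and 11.31 and 11.10 in NOD.scid with it. Its difference was 4.98 in NOD and 2.78 in NOD.scid, with an additive value of 3.88 (SE 0.348, adjusted p = 0.000281 in limma). Reg2, a Reg protein also made in islets and acinar cells, read 8.05 and 7.96 in NOD and 9.65 and 9.6 in NOD.scid without the transgene, and 12.08 and 12.28 in NOD and 12.28 and 12.02 in NOD.scid with it. The additive difference of Reg2 was 3.35 (SE 0.268, adjusted p = 0.000137 in limma), while its second probe set gave 0.44 (adjusted p = 0.0834 in limma). For both genes the control groups differed more from each other than the transgene groups did.

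Reg1, the lithostathine of pancreatic juice, read 12.65 and 12.73 in NOD and 12.64 and 12.83 in NOD.scid without the transgene, and 12.74 and 12.80 in NOD and 12.74 and 12.57 in NOD.scid with it. Its additive difference was -0.00 with a 95% interval of -0.20 to 0.20, and the groups overlap.

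**Figure D2:**
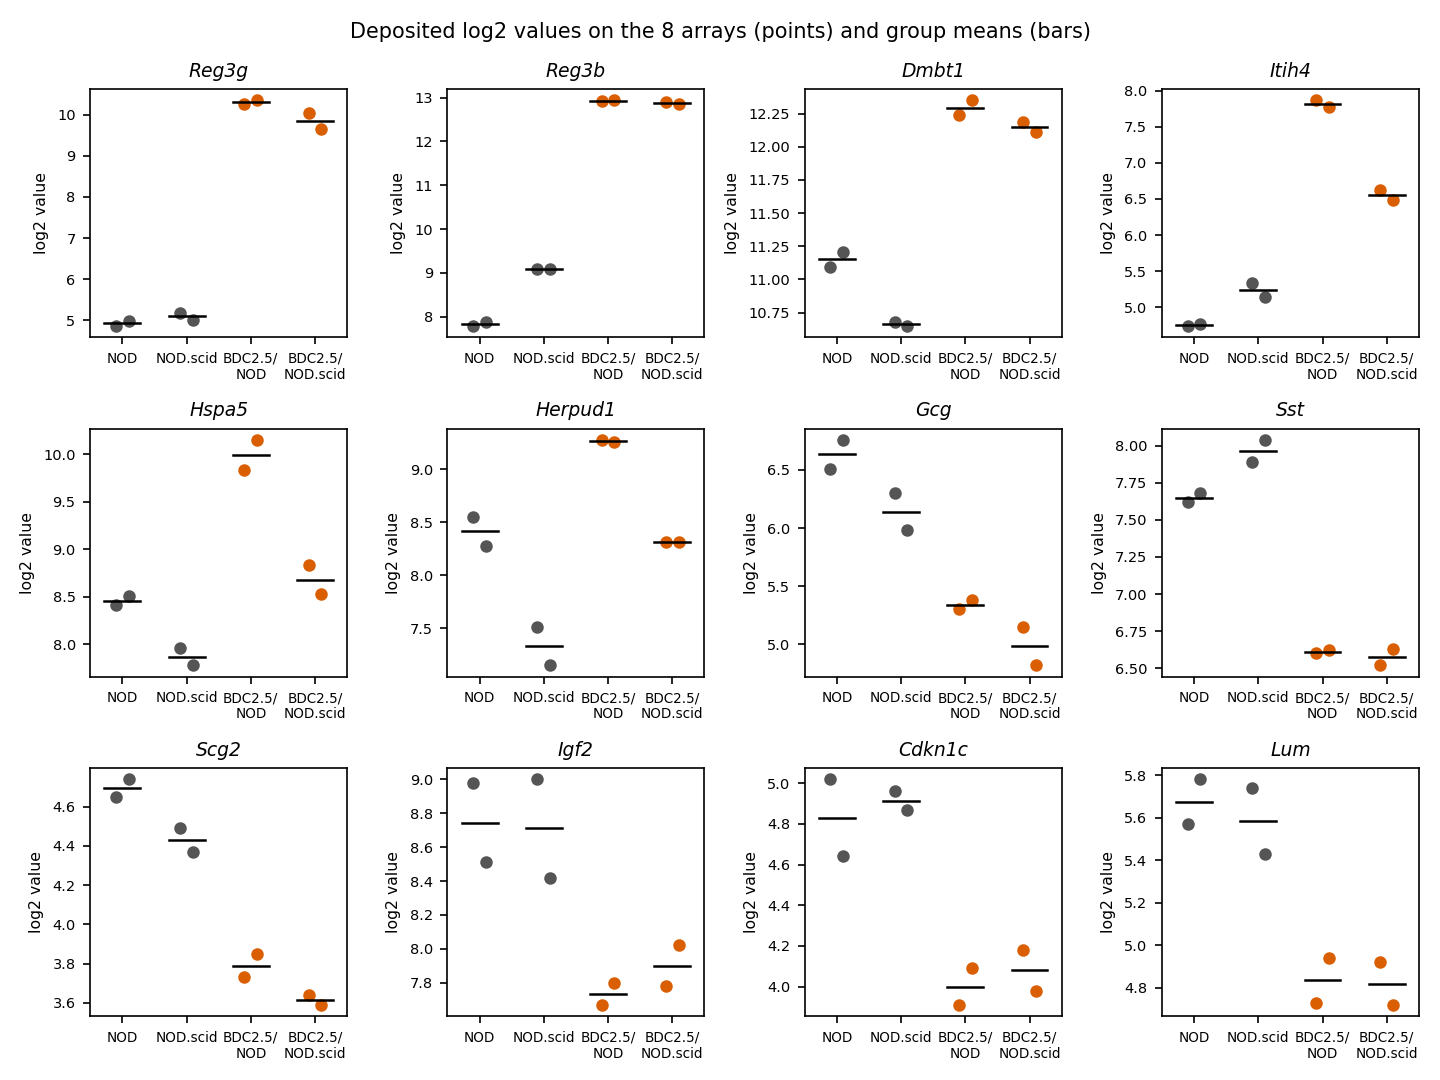
Deposited log2 values (y axis, a separate scale in each panel) of 12 genes on the 8 arrays; points are arrays, grey without and orange with the transgene, and black bars are means of the 2 arrays of a group. Reg3g, Reg3b, Dmbt1, Itih4 and Hspa5 lie higher on all 4 transgene arrays, Gcg, Sst, Scg2, Igf2, Cdkn1c and Lum lie lower on all 4, and Herpud1 is higher within each background although the 4 arrays of each kind overlap.

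Genes of the acute phase response and of STAT3 signalling, the route through which interleukin-6 family cytokines act, rose as part of the shared effect. Of 29 measured genes of this list 9 were called higher and none lower, against 1.55% and 2.91% of all genes, and the median was 0.23. In 14 of the 29 all 4 transgene arrays lay above the others. The signal was fragile for most members, since only Itih4 kept its call in all 8 fits that left out 1 array. This list was put together with earlier results of these data known.

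Itih4, a plasma protein of the inter-alpha-trypsin inhibitor family, read 4.74 and 4.77 in NOD and 5.33 and 5.14 in NOD.scid without the transgene, and 7.87 and 7.77 in NOD and 6.63 and 6.48 in NOD.scid with it. All 4 transgene arrays are above all 4 others, more so in NOD. The additive difference was 2.19 (SE 0.278, adjusted p = 0.00225 in limma), with 3.06 in NOD, 1.32 in NOD.scid and an interaction of -1.74 (adjusted p = 1.48e-05).

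Lrg1, a secreted leucine-rich glycoprotein of the acute phase, leaned the other way. It read 4.19 and 4.20 in NOD and 4.35 and 4.11 in NOD.scid without the transgene, and 5.07 and 5.16 in NOD and 7.84 and 7.87 in NOD.scid with it. The groups are separate in both backgrounds, with 0.92 in NOD and 3.63 in NOD.scid, an additive value of 2.27 (SE 0.422, adjusted p = 0.0151 in limma) and an interaction of 2.70. Its call was lost without the second BDC2.5/NOD.scid array or the first NOD.scid array (highest adjusted p = 0.0509).

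The other 7 calls of the list were smaller. Socs3, the feedback inhibitor of STAT3 signalling, rose by 0.42 (0.40 in NOD and 0.43 in NOD.scid), and a second probe set rose by 0.61. Stat3 itself rose by 0.33, with 0.51 on its second probe set. Socs2, a related feedback inhibitor, rose by 0.43, and Osmr, the receptor chain for oncostatin M, by 0.39. Osmr was dim, at 2.7 to 3.4 on the 8 arrays against a median of 4.27 over all values. Itih3 rose by 0.36, Serpina3n, a protease inhibitor of the acute phase, by 0.42, and haptoglobin, Hp, by 0.57. For each of these 7 genes the additive call held in 1 to 3 of the 8 fits that left out 1 array, with highest adjusted p-values of 0.0762 to 0.139.

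The gene for Dmbt1, a mucin-like scavenger protein of epithelial defence that acinar and duct cells secrete, rose in both backgrounds. It read 11.09 and 11.21 in NOD and 10.68 and 10.65 in NOD.scid without the transgene, and 12.24 and 12.35 in NOD and 12.19 and 12.11 in NOD.scid with it. No transgene array is near a control array. The additive difference was 1.32 (SE 0.0929, adjusted p = 6.62e-05 in limma), a 2.49-fold increase, with 1.14 in NOD and 1.48 in NOD.scid and no interaction past the threshold (0.34, 95% interval 0.09 to 0.59, adjusted p = 0.128). The call held in all 8 fits that left out 1 array, with a highest adjusted p of 0.000615.

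For the Reg, acute phase, interferon and chaperone genes, the promoters of RefSeq (build GRCm38.p6, 250 bases before to 50 after the start) were searched for letters known to be bound in response to such signals. The first was TTCNNNGAA, the palindrome read by STAT factors, which is its own reverse complement, so 1 search covers both strands. It occurs in 2726 of 32851 promoters (8.3%), in 1 of the 4 Reg genes called higher, in 2 of the 7 acute phase genes called higher that have a promoter entry and in 4 of the 17 not called. The windows of the called genes follow, shown because they lie near the starts of genes that rose together, with the fixed letters in capitals and the gene's strand given.
Reg3b, chr6:78370741-78370779, + strand, 129 bases before the start: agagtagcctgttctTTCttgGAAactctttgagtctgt
Itih4, chr14:30886410-30886448, + strand, 51 bases before the start: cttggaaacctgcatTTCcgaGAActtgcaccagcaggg
Socs3, chr11:117969497-117969535, - strand, 154 bases before the start: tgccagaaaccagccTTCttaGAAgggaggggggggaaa
These matches are descriptions of letters, and their presence or absence in a window of this length says nothing of whether a factor bound.

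Part of the endoplasmic reticulum folding machinery rose with the transgene, more in NOD. The chaperone list held 34 measured genes, of which 5 were called higher and 2 lower, with a median of 0.18 made of 0.35 in NOD and 0.01 in NOD.scid. Hspa5, Hsp90b1 and Herpud1 kept their calls in all 8 fits that left out 1 array, Creld2 in 5 and Dnajc3 in 1.

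Hspa5 encodes BiP, a major chaperone of the endoplasmic reticulum. It read 8.41 and 8.51 in NOD and 7.96 and 7.78 in NOD.scid without the transgene, and 9.83 and 10.15 in NOD and 8.83 and 8.53 in NOD.scid with it. The lowest transgene array is just above the highest NOD array, while within each background the groups are well apart. The additive difference was 1.17 (SE 0.148, adjusted p = 0.00224 in limma), with 1.53 in NOD, 0.81 in NOD.scid and an interaction that passed (-0.72, adjusted p = 0.0365).

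Herpud1, which helps to clear misfolded proteins from the endoplasmic reticulum, changed by nearly the same amount in each background. It read 8.55 and 8.28 in NOD and 7.51 and 7.15 in NOD.scid without the transgene, and 9.28 and 9.26 in NOD and 8.31 and 8.31 in NOD.scid with it. Because NOD.scid starts lower, the 4 arrays of each kind overlap, but the difference was 0.86 in NOD and 0.98 in NOD.scid. The additive value was 0.92 (SE 0.0963, adjusted p = 0.000933 in limma), and the interaction was 0.12 with a 95% interval of -0.25 to 0.49.

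Hsp90b1, the chaperone GRP94, rose by 1.06 in NOD and 0.55 in NOD.scid (additive 0.81, SE 0.108, adjusted p = 0.003 in limma). Creld2, a secreted stress protein, rose by 2.08 in NOD and 0.56 in NOD.scid (additive 1.32, SE 0.246, adjusted p = 0.0157 in limma), and its call was lost without either BDC2.5/NOD array or the second NOD array (highest adjusted p = 0.0584). Dnajc3, a co-chaperone of BiP, rose by 0.59 over both backgrounds but by only 0.24 in NOD.scid, where it did not pass. The 2 genes called lower were Ppib (-0.44) and Fkbp2 (-0.42), both prolyl isomerases of the same compartment, and their calls held in 3 and 2 of the 8 fits.

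The second promoter search was for the endoplasmic reticulum stress element, the letters CCAAT, then any 9 bases, then CCACG, on both strands; on the reverse strand it reads CGTGG, 9 bases, ATTGG. It occurs in 39 of 32851 promoters (0.119%). In the chaperone list 4 of the 5 genes called higher had it (Hspa5, Hsp90b1, Dnajc3 and Creld2, not Herpud1), 4 of 22 not called (Pdia6, Calr, Canx and Ero1b) and 0 of the 2 called lower. The 5 windows in called genes are given because they show how near to the start the element lies, with its fixed letters in capitals.
Hspa5, chr2:34772010-34772058, + strand, 65 bases before the start: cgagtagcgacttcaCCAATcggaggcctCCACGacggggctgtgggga
Hsp90b1, chr10:86705518-86705566, - strand, 107 bases before the start: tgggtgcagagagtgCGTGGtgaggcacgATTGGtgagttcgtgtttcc
Hsp90b1, chr10:86705623-86705671, - strand, 212 bases before the start: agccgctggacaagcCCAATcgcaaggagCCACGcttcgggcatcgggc
Dnajc3, chr14:118937812-118937860, + strand, 105 bases before the start: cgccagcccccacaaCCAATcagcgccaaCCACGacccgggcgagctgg
Creld2, chr15:88819505-88819553, + strand, 126 bases before the start: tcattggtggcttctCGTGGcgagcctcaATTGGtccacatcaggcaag
The element is part of what this gene list is known for, so the count describes the list and not these samples.

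Genes of the ATF4 arm of the stress response and of amino acid supply showed 4 calls higher and none lower among 37 measured, with a median of 0.14. Ddit4, an inhibitor of the growth kinase complex mTORC1, read 5.74 and 5.68 in NOD and 5.35 and 5.51 in NOD.scid without the transgene, and 6.45 and 6.56 in NOD and 7.46 and 7.32 in NOD.scid with it. Every transgene array lies above every other, and the additive difference was 1.37 (SE 0.193, adjusted p = 0.00362 in limma). The effect was larger in NOD.scid, 1.96, than in NOD, 0.79, and the interaction passed (1.17, adjusted p = 0.000318). Ddit4 was the only one of the 4 calls that held in all 8 fits; Nupr1, a stress-induced nuclear protein of acinar cells, rose by 0.70 but kept its call in 1 of them. Slc3a2, the heavy chain of amino acid transporters, rose by 0.43 and kept its call in 3. Of 30 cytosolic and mitochondrial heat shock genes 1 was called, Hspa8, which rose by 0.59 and held in all 8.

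Early-response and feedback genes had 5 calls higher and 1 lower among 35. Gadd45g, a growth arrest gene, read 4.69 and 4.85 in NOD and 4.51 and 4.40 in NOD.scid without the transgene, and 5.33 and 5.28 in NOD and 5.60 and 5.16 in NOD.scid with it. All transgene arrays exceed all others, and the additive difference was 0.73 (SE 0.113, adjusted p = 0.00616 in limma). Btg2, an antiproliferative gene, rose by 0.48 (0.38 in NOD, 0.58 in NOD.scid); both it and Gadd45g kept their calls in all 8 fits. Cebpb, a transcription factor of inflammation, rose by 0.81 and Zfp36, which destabilises cytokine messages, by 0.55, but these calls held in 5 and 4 of the 8 fits. Each was lost without either BDC2.5/NOD.scid array or without the first NOD.scid array, and Zfp36 without the second NOD.scid array too. Ifrd1, which belongs to the same list, fell by 1.02, made of -1.63 in NOD and -0.41 in NOD.scid, with a call that held in 3 of the 8 fits. In the circadian list 2 of 14 genes were called higher: Per1 by 0.41 and Nr1d1 by 0.45, held in 6 and 1 of the 8 fits.

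Among exocrine genes a few enzymes and granule proteins rose while the list medians stayed near zero. The digestive enzyme list had 4 of 16 measured genes called higher and none lower (median 0.01), and the secretory and identity list 2 of 20 higher and 1 lower (median 0.04). Pla2g1b, the pancreatic phospholipase A2, read 11.18 and 11.01 in NOD and 11.20 and 10.88 in NOD.scid without the transgene, and 12.63 and 12.59 in NOD and 11.69 and 11.95 in NOD.scid with it. Every transgene array is above every control array, and the additive difference was 1.15 (SE 0.15, adjusted p = 0.00276 in limma), held in all 8 fits. The effect was 1.52 in NOD and 0.78 in NOD.scid, and the interaction passed (-0.74, adjusted p = 0.0235).

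The trypsin-like gene 1810009J06Rik belongs to the largest changes mainly through NOD. Its values were 6.06 and 6.05 in NOD and 6.15 and 6.05 in NOD.scid without the transgene, and 8.85 and 8.89 in NOD and 6.55 and 6.40 in NOD.scid with it. The NOD.scid effect was 0.37 against 2.82 in NOD, and the interaction was -2.44 (adjusted p = 3.87e-07 in limma). Its additive call (1.59, adjusted p = 0.0435) was lost without any 1 of the 4 arrays of the NOD background, with a highest adjusted p of 0.136. Of the other exocrine calls, Amy1 rose by 0.51, Pnliprp2, a lipase, by 0.44 and Sycn, a zymogen granule protein, by 0.61, each held in 2 or 3 of the 8 fits. Cckar, the acinar receptor for cholecystokinin, fell by 0.46 and held in 1.

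A few antigen-presenting genes rose with the transgene, and H2-K1, H2-D1 and H2-Ab1 did so far more in NOD.scid than in NOD. Of 17 class I and peptide-loading genes 3 were called higher (median 0.25) and of 11 class II genes 2 (median 0.22), with none lower in either list; 7 and 4 of these genes passed the interaction test. Tapbp, the chaperone tapasin that loads peptide onto class I, had a like effect in each background: 5.80 and 5.99 in NOD and 6.06 and 6.08 in NOD.scid without the transgene, and 6.38 and 6.40 in NOD and 6.45 and 6.44 in NOD.scid with it. The 4 transgene arrays form a tight upper group, and the additive difference was 0.43 (SE 0.0712, adjusted p = 0.00857 in limma), with 0.49 in NOD and 0.37 in NOD.scid. It held in all 8 fits, although the other Tapbp probe sets gave 0.34 and 0.05 and were not called.

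H2-K1, a classical class I heavy chain, read 6.98 and 7.10 in NOD and 7.02 and 7.15 in NOD.scid without the transgene, and 7.72 and 7.69 in NOD and 9.57 and 9.39 in NOD.scid with it. The groups are separate in both backgrounds, with a much wider gap in NOD.scid (2.40) than in NOD (0.66). The additive difference was 1.53 (SE 0.277, adjusted p = 0.0137 in limma), and the interaction was 1.74. Its other probe sets gave 0.96, which was called, and 0.08, which was not. H2-D1 followed the same pattern (additive 1.5, 0.62 in NOD and 2.38 in NOD.scid), and its call was lost without the second BDC2.5/NOD.scid array (adjusted p = 0.0579 in limma).

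Among class II genes H2-Ab1 was called (1.07, adjusted p = 0.0353 in limma), with 0.33 in NOD, where it did not pass, and 1.81 in NOD.scid; without any 1 of the 4 scid-background arrays the call was lost, up to an adjusted p of 0.0968. H2-Aa had nearly all its difference in NOD.scid: 5.75 and 6.06 in NOD against 5.95 and 5.97 in BDC2.5/NOD, and 5.64 and 5.80 in NOD.scid against 8.82 and 8.56 in BDC2.5/NOD.scid. Its additive value of 1.51 was not called (adjusted p = 0.0967). Cd74, the invariant chain, gave 1.47 (adjusted p = 0.0842) and B2m, the class I light chain, 1.53 (adjusted p = 0.0689), and neither was called. Their interactions passed (2.52 for Cd74 and 2.62 for B2m).

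Interferon-induced genes showed 2 of 29 called higher and 1 lower, and chemokine and adhesion genes 3 of 35 higher and none lower. Over all genes 1.55% were called higher and 2.91% lower. Irgm1, a guanosine triphosphatase induced by interferon gamma, rose by 0.42 and Ccl6, a chemokine of myeloid cells, by 0.44. These were the calls of the 2 lists that held in all 8 fits. Irgm1 was dim, at 2.93 to 3.73 on the 8 arrays against a median of 4.27 over all values. Its transgene arrays were not all above the others. Ccl6 read 4.54 and 4.36 in NOD and 4.56 and 4.66 in NOD.scid without the transgene, and 4.88 and 4.99 in NOD and 5.03 and 5.0 in NOD.scid with it. All transgene arrays lie above the others, with differences of 0.49 in NOD and 0.40 in NOD.scid. Ccl9 rose by 0.83 and Ccl8 by 0.73, mostly in NOD.scid, and each held in 4 of the 8 fits. Gbp2, another interferon-induced guanosine triphosphatase, rose by 0.56 and held in 4. In the list of tumour necrosis factor and NF-kB genes, Rela (0.36) and Relb (0.35), both NF-kB subunits, were the 2 called of 32, held in 0 and 2 of the 8 fits. The STAT letters were found in 0 of the 2 interferon-induced genes called higher and in 7 of the 20 not called that had a promoter entry.

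Markers of T cells did not pass. In limma's test 0 of 19 T cell genes were called, with a median of 0.07 and 5 genes higher at an unadjusted p under 0.05. Over all 8251 genes 805 were higher and 916 lower at that unadjusted threshold. Cd3e, a chain of the receptor complex, read 5.70 and 5.63 in NOD and 5.50 and 5.78 in NOD.scid without the transgene, and 5.81 and 5.80 in NOD and 5.89 and 5.84 in NOD.scid with it. All 4 transgene arrays were above the others but by a difference of 0.18 (95% interval 0.01 to 0.35, adjusted p = 0.225 in limma). Cd4 gave 0.17 (adjusted p = 0.228) and Cd3g 0.02 (adjusted p = 0.894). Of 25 activation and effector genes 1 was called, Tnfrsf18, the receptor GITR of regulatory and activated T cells, which rose by 0.30 and held in 0 of the 8 fits. No gene was called by limma in the lists of B and plasma cells (16 measured), NK cells (8) and dendritic cells (12), where 0, 1 and 3 genes had an unadjusted p under 0.05. The same held for endothelial (16 measured), neural (12), metallothionein (6) and sex-linked genes (4), where 2, 3, 0 and 1 had an unadjusted p under 0.05 in limma.

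Macrophage genes had 2 of 36 called, C1qc (0.68) and Lgals3 (0.47), with a list median of -0.01 in NOD and 0.32 in NOD.scid. These calls held in 4 and 2 of the 8 fits that left out 1 array. Lgals3 was dim, at 2.86 to 4.0 on the 8 arrays against a median of 4.27 over all values. The mean of 5 macrophage markers, Adgre1, Csf1r, Cd68, C1qa and Lyz2, was 4.53 to 4.72 in NOD and 4.76 to 4.82 in NOD.scid without the transgene, and 4.57 to 4.63 in NOD and 5.52 to 5.66 in NOD.scid with it. The BDC2.5/NOD.scid arrays stand apart and the BDC2.5/NOD arrays do not, and none of the 5 was called in the additive fit. The larger NOD.scid effects of H2-K1, H2-D1, H2-Ab1, H2-Aa, Cd74, B2m, Lrg1, Ccl8, Ccl9 and Cebpb move with this marker level, and its part in them was not tested. Within NOD, H2-K1, H2-D1 and Lrg1 were called higher and the other 7 of these 10 genes were not.

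**Figure D3:**
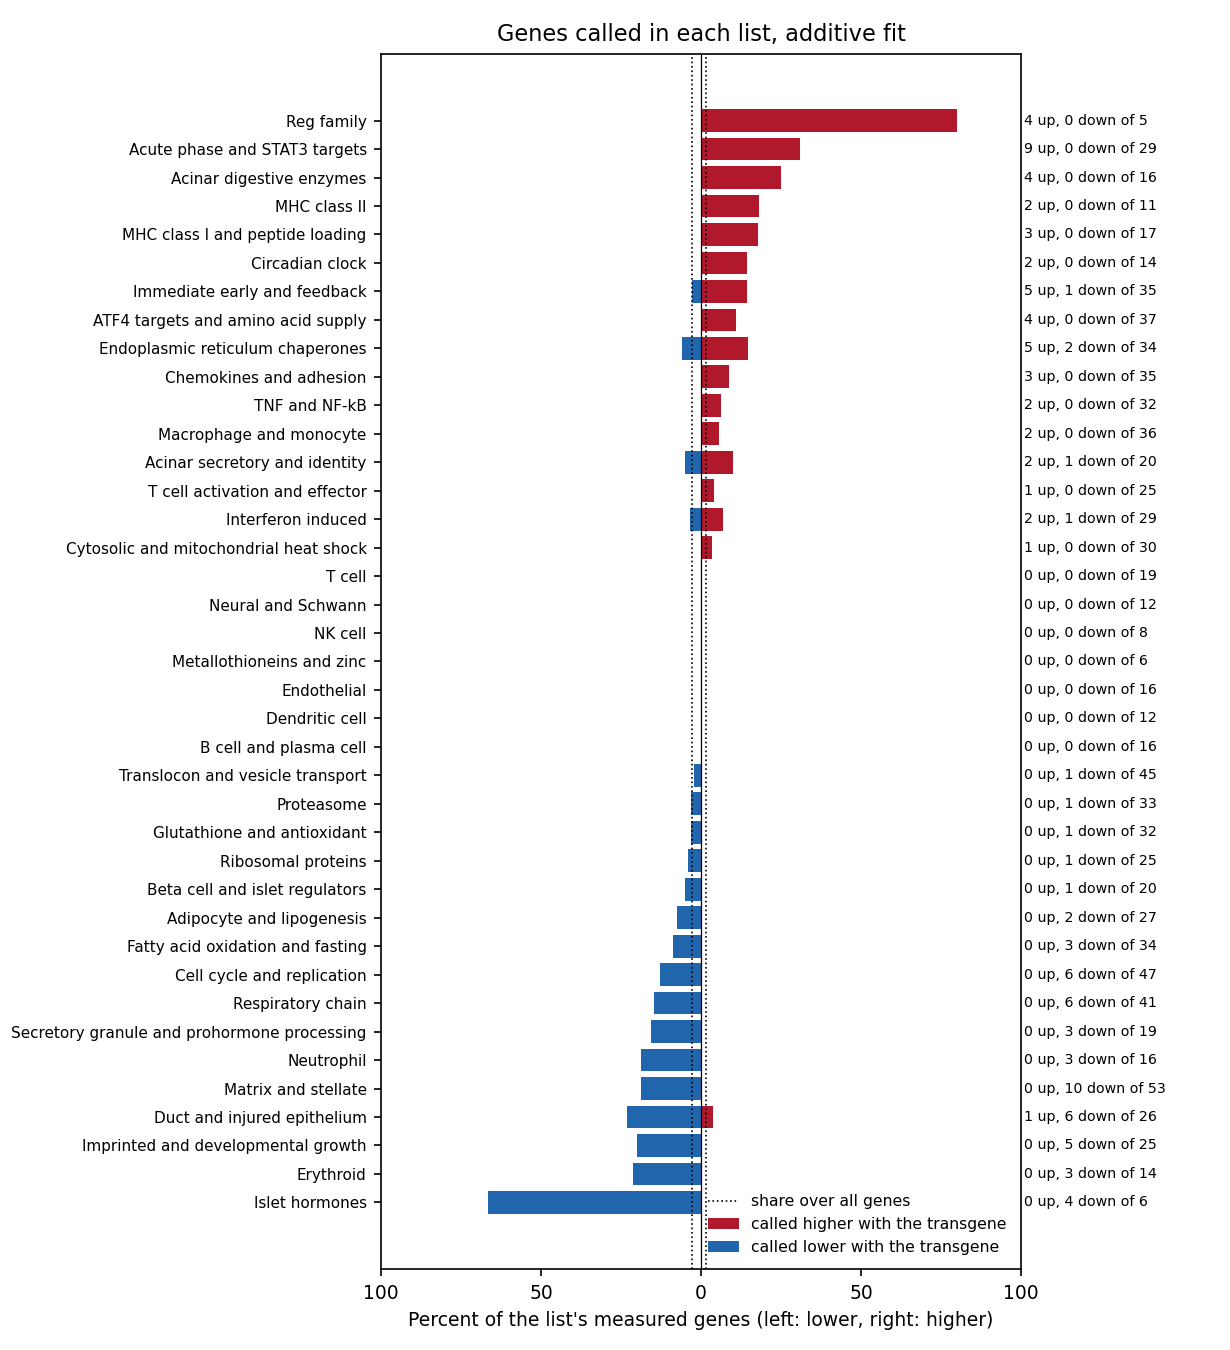
Percent of each list's measured genes called higher (red, to the right) or called lower (blue, to the left) with the transgene in the additive fit, with the counts at the right; dotted lines mark the shares over all genes, 1.55% higher and 2.91% lower. The Reg family (4 of 5 higher) and islet hormones (4 of 6 lower) stand at the ends, and T, B, NK and dendritic cell lists have no bar.

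Insulin, amylin, glucagon and somatostatin fell with the transgene in both backgrounds. Of 6 measured hormone genes 4 were called lower and none higher, with a median of -1.07, and all 4 kept their calls in each of the 8 fits that left out 1 array. The fall covered the main product of 3 islet cell types: insulin and amylin of beta cells, glucagon of alpha cells and somatostatin of delta cells.

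Gcg, glucagon, read 6.51 and 6.76 in NOD and 6.30 and 5.98 in NOD.scid without the transgene, and 5.30 and 5.38 in NOD and 5.15 and 4.82 in NOD.scid with it. No transgene array reaches a control array. It fell by 1.22 (SE 0.105, adjusted p = 0.000203 in limma), a 2.33-fold decrease. The effect was -1.29 in NOD and -1.16 in NOD.scid, with an interaction of 0.14 (95% interval -0.29 to 0.56).

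Sst, somatostatin, read 7.62 and 7.68 in NOD and 7.89 and 8.04 in NOD.scid without the transgene, and 6.6 and 6.62 in NOD and 6.52 and 6.63 in NOD.scid with it. The 4 transgene arrays lie within a narrow band about 1 log2 unit below the rest. It fell by 1.22 (SE 0.088, adjusted p = 7.23e-05 in limma), with -1.04 in NOD and -1.39 in NOD.scid and no interaction past the threshold (adjusted p = 0.173).

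Ins2, one of the 2 mouse insulin genes, read 11.59 and 11.53 in NOD and 11.64 and 11.81 in NOD.scid without the transgene, and 10.85 and 10.80 in NOD and 10.35 and 10.20 in NOD.scid with it. The transgene groups are below the controls and differ from each other. It fell by 1.09 (SE 0.136, adjusted p = 0.00209 in limma), a 2.13-fold decrease, and a second probe set fell by 0.84. The fall was larger in NOD.scid (-1.45) than in NOD (-0.73), and the interaction passed (-0.72, adjusted p = 0.00548).

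Iapp, amylin, which is released with insulin, read 5.25 and 5.24 in NOD and 5.62 and 5.25 in NOD.scid without the transgene, and 4.54 and 4.47 in NOD and 4.29 and 3.84 in NOD.scid with it. Again no transgene array reaches a control array, and it fell by 1.05 (SE 0.146, adjusted p = 0.00323 in limma). Ppy, pancreatic polypeptide, was not called on its probe set of highest mean (-0.16, adjusted p = 0.305 in limma), while its second probe set was called (-0.55, adjusted p = 0.0142). Ghrelin, Ghrl, gave 0.31 (adjusted p = 0.0528) and was not called.

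Other islet genes moved less uniformly. In the secretory granule and prohormone processing list 3 of 19 were called lower and none higher, with a median of -0.04. Scg2, a granin of dense-core granules, read 4.65 and 4.74 in NOD and 4.49 and 4.37 in NOD.scid without the transgene, and 3.73 and 3.85 in NOD and 3.64 and 3.59 in NOD.scid with it. The gap is about as wide in each background (-0.90 and -0.82), and the additive fall was 0.86 (SE 0.0695, adjusted p = 0.00014 in limma).

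Cpe, the carboxypeptidase that trims prohormones, fell by 0.94 (adjusted p = 0.00221 in limma) and by 1.07 on a second probe set, and it held in all 8 fits as Scg2 did. Resp18, a granule protein, fell by 0.41 and held in 1 of the 8. Among 20 transcription factors and other regulators of beta cells and islets 1 was called, Foxa2, which fell by 0.49 and held in 4 of the 8. The median of that list was 0.01, so the list as a whole did not follow the hormones.

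**Figure D4:**
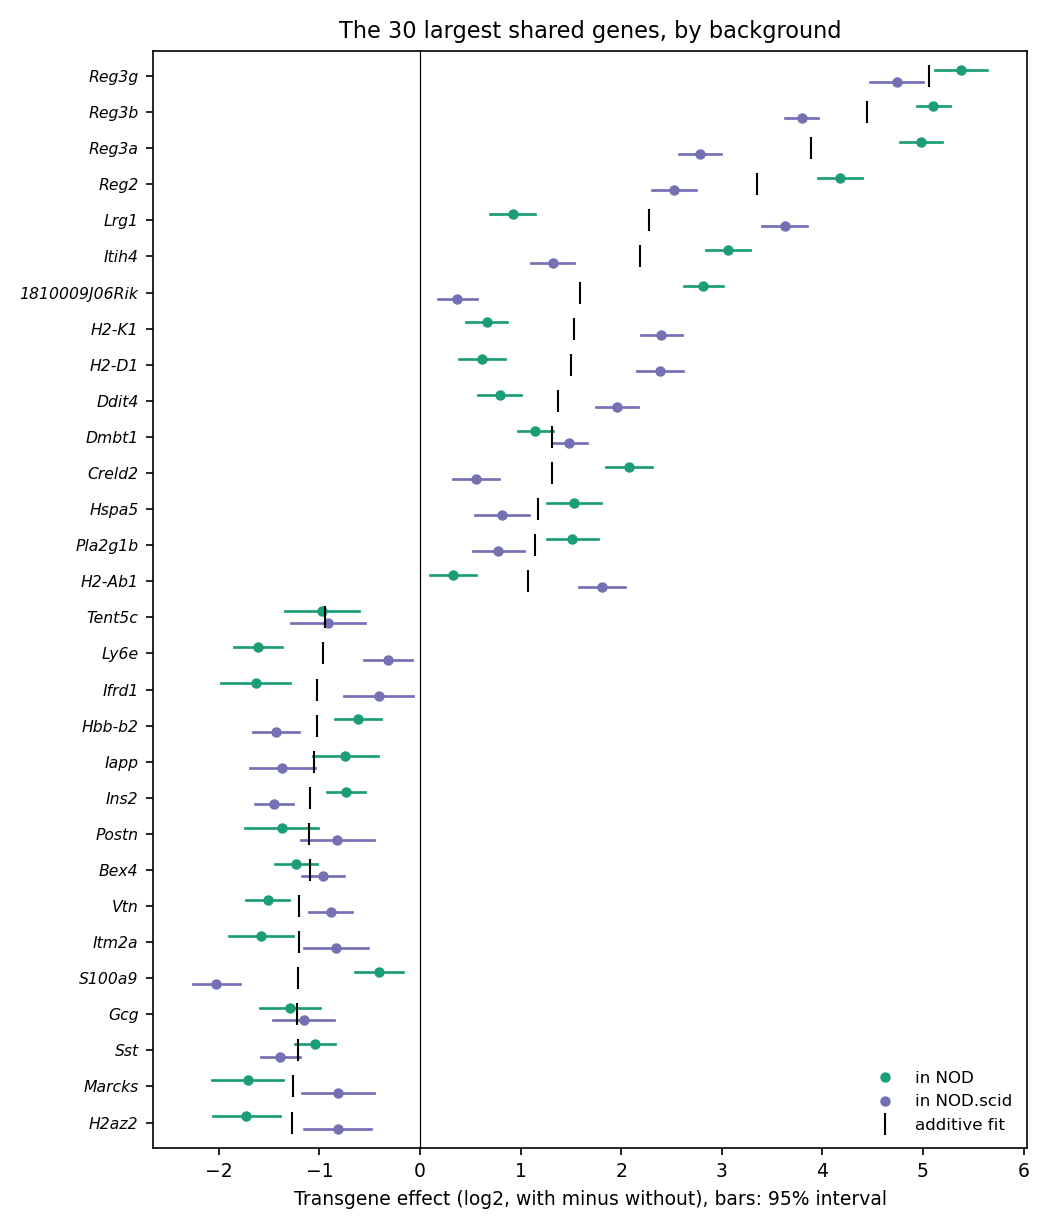
The 15 genes called higher and the 15 called lower with the largest additive log2 differences among shared genes. Points are the effect in NOD (green) and NOD.scid (purple), horizontal bars their 95% intervals from limma, and black ticks the additive value; Gcg and Tent5c show nearly the same size in each background, while Lrg1, 1810009J06Rik and S100a9 do not.

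Some extracellular matrix and stellate cell genes fell. Of 53 measured genes 10 were called lower and none higher, with a median of -0.13, and 9 of the 10 kept their calls in all 8 fits; Sparc kept its call in 0. In 14 of the 53 all 4 transgene arrays lay below the others. Vtn, vitronectin, an adhesion protein of plasma and matrix, read 8.61 and 8.41 in NOD and 8.56 and 8.37 in NOD.scid without the transgene, and 6.95 and 7.05 in NOD and 7.57 and 7.58 in NOD.scid with it. All transgene arrays are below all others, and it fell by 1.2 (SE 0.124, adjusted p = 0.000861 in limma), more in NOD (-1.51) than in NOD.scid (-0.89; interaction 0.63, adjusted p = 0.0238).

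Lum, lumican, a proteoglycan that organises collagen fibrils, read 5.57 and 5.78 in NOD and 5.74 and 5.43 in NOD.scid without the transgene, and 4.73 and 4.94 in NOD and 4.92 and 4.72 in NOD.scid with it. The 2 transgene groups overlap each other and lie below both control groups. It fell by 0.81 (SE 0.0969, adjusted p = 0.00195 in limma), with an interaction of 0.08 (95% interval -0.33 to 0.48).

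Postn, periostin, a matrix protein of growing and remodelling connective tissue, fell by 1.10 (-1.38 in NOD, -0.82 in NOD.scid). The fibrillar collagens fell together: Col1a1 by 0.50, Col1a2 by 0.64 and Col3a1 by 0.56, the last with falls of 0.96 and 0.71 on its other probe sets. Second probe sets of Col1a1 (-0.65) and Col1a2 (-0.05) were not called. Col6a3 fell by 0.52, elastin, Eln, by 0.59 and Mgp, a matrix protein that inhibits calcification, by 0.45. The mean of Col1a1, Col1a2 and Dcn was 7.82 to 7.86 in NOD and 7.69 to 7.78 in NOD.scid without the transgene, and 6.90 to 6.99 in NOD and 7.42 to 7.45 in NOD.scid with it. Dcn, decorin, another proteoglycan of stellate cells, fell in NOD (-1.45) and not in NOD.scid (0.14), and its interaction passed (1.59, adjusted p = 0.00144 in limma).

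In the list of imprinted and developmental growth genes 5 of 25 were called lower and none higher, and 3 held in all 8 fits. The other 20 were not called, and the list median was -0.04. Igf2, the imprinted growth factor of fetal and suckling life, read 8.98 and 8.51 in NOD and 9.0 and 8.42 in NOD.scid without the transgene, and 7.67 and 7.80 in NOD and 7.78 and 8.02 in NOD.scid with it. The control arrays spread more than the transgene arrays, yet none overlaps, and it fell by 0.91 (SE 0.141, adjusted p = 0.00591 in limma); a second, dim probe set gave 0.0.

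Cdkn1c, an imprinted inhibitor of the cell cycle, had almost the same effect in each background. It read 5.02 and 4.64 in NOD and 4.96 and 4.87 in NOD.scid without the transgene, and 3.91 and 4.09 in NOD and 4.18 and 3.98 in NOD.scid with it. The fall was 0.83 (SE 0.0955, adjusted p = 0.0015 in limma), made of -0.83 and -0.84, and the interaction was -0.01 (95% interval -0.42 to 0.40). Sox4, a transcription factor of progenitor cells, fell by 0.56 and held in all 8 fits. Mdk, the growth factor midkine, fell by 0.37 and Mest, an imprinted gene of growing tissue, by 0.45, and these held in 2 of the 8.

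Cell cycle genes tended to the same side. Of 47 measured genes 6 were called lower and none higher, with a median of -0.21, and 4 held in all 8 fits. Smc4, a condensin subunit that packs chromosomes, read 4.39 and 4.31 in NOD and 4.61 and 4.30 in NOD.scid without the transgene, and 3.40 and 3.58 in NOD and 3.72 and 3.36 in NOD.scid with it. The groups do not overlap, and it fell by 0.88 (SE 0.101, adjusted p = 0.0015 in limma), -0.86 in NOD and -0.91 in NOD.scid. Stmn1, a microtubule regulator of dividing cells, fell by 0.72, Ccnb2, a mitotic cyclin, by 0.56, and Mcm5, a part of the replicative helicase, by 0.38, although second probe sets of Stmn1 (-0.04) and Mcm5 (0.16) were not called. Pcna, the replication clamp, fell by 0.71 and Cdc20, a mitotic regulator, by 0.51, held in 5 and 2 of the 8 fits; Pcna was lost without either NOD.scid array or the second NOD array.

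Several of the largest falls belong to none of these lists. H2az2, a histone variant of active and poised chromatin, read 5.94 and 6.30 in NOD and 6.54 and 6.10 in NOD.scid without the transgene, and 4.34 and 4.45 in NOD and 5.62 and 5.38 in NOD.scid with it. The groups do not overlap, and it fell by 1.27 (SE 0.18, adjusted p = 0.00368 in limma), more in NOD (-1.73) than in NOD.scid (-0.82; interaction 0.91, adjusted p = 0.0322). Marcks, an actin-binding substrate of protein kinase C, fell by 1.26 in a like way (-1.71 and -0.82).

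Bex4, a small protein of the brain-expressed X-linked family, read 6.38 and 6.56 in NOD and 6.49 and 6.39 in NOD.scid without the transgene, and 5.25 and 5.23 in NOD and 5.50 and 5.45 in NOD.scid with it. It fell by 1.10 (SE 0.0814, adjusted p = 8.25e-05 in limma), and the interaction was 0.27 (95% interval -0.02 to 0.56). Tent5c, a cytoplasmic poly(A) polymerase, fell by 0.95 (-0.98 and -0.92), and Itm2a, a membrane protein, by 1.21 (-1.58 and -0.83). All 5 of these genes kept their calls in the 8 fits. Ly6e, the membrane protein that is the 1 gene called lower in the interferon list, fell by 0.96 (-1.61 and -0.32), was lost without any 1 of 5 arrays and gave -0.02 on a second probe set.

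Genes of duct and injured epithelium included 6 called lower and 1 higher of 26, with a median of 0.01. Cldn3, a tight junction protein, read 5.31 and 5.26 in NOD and 5.79 and 5.69 in NOD.scid without the transgene, and 4.71 and 4.74 in NOD and 5.23 and 5.14 in NOD.scid with it. It fell by 0.56 (SE 0.0659, adjusted p = 0.00188 in limma) with -0.56 in NOD and -0.55 in NOD.scid, and it was the call of this list that held in all 8 fits; a second probe set gave -0.07. Car2, carbonic anhydrase of duct cells and red cells, fell by 1.56 (-0.47 in NOD and -2.64 in NOD.scid), and the call was lost without any 1 of the 4 scid-background arrays. It was high in NOD.scid alone, at 6.70 and 6.85, against 4.10 and 4.18 in NOD. With the transgene it read 3.57 and 3.77 in NOD and 4.17 and 4.08 in NOD.scid, so the 4 arrays of each kind overlap. Krt19, a duct keratin, fell by 0.48, Epcam, an epithelial adhesion protein, by 0.35, Anxa1, an annexin, by 0.43, and Krt20 by 0.41, held in 1 to 5 of the 8 fits.

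Energy metabolism showed small falls. In the respiratory chain list 6 of 41 genes were called lower and none higher, with a median of -0.14, and in 34 of the 41 the difference was negative. Over all 8251 genes 2.91% were called lower and 3726 had a negative difference. Cox6c, a subunit of cytochrome c oxidase, fell by 0.60 and Ndufb8, a subunit of complex I, by 0.60, and these 2 held in all 8 fits. Other probe sets of Cox6c gave 0.24 and -0.24 and were not called. Of 34 genes of fatty acid oxidation and fasting 3 were called lower. Hadh, a dehydrogenase of fatty acid oxidation, read 6.39 and 6.54 in NOD and 6.41 and 6.32 in NOD.scid without the transgene, and 5.79 and 5.80 in NOD and 5.84 and 5.89 in NOD.scid with it. No array overlaps, and it fell by 0.58 (SE 0.0731, adjusted p = 0.00214 in limma).

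Etfb, which passes electrons from that pathway, fell by 0.55 and also held in all 8 fits, while Acaa2, a thiolase, fell by 0.94 almost wholly in NOD (-1.65 against -0.24) and held in 2. A second Etfb probe set gave 0.03. Of 25 ribosomal protein genes Rps3 was called (-0.48, held in all 8 fits), of 33 proteasome subunits Psma7 (-0.40, held in 1), and of 32 glutathione and antioxidant genes Gstt1, a glutathione transferase (-0.41, held in 4). In the list of fat cell and lipid synthesis genes Lpl, lipoprotein lipase (-0.73, held in 3), and Scd1, a desaturase (-0.37, held in 5), were the 2 called of 27. A second Lpl probe set gave -0.67 and was not called. Other Scd1 probe sets gave -0.42, which was called, and 0.38, which was not. Ssr2, a translocon-associated protein, was the 1 called of 45 translocon and transport genes, by -0.74, and its call was lost without the first NOD.scid array (adjusted p = 0.0507 in limma). Single calls in lists of 25 to 45 genes are near the share over all genes, 2.91% called lower.

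A few neutrophil and erythroid genes fell with the transgene, and here the control groups differ. Of 16 neutrophil genes 3 were called lower (median -0.03), and of 14 erythroid genes 3 (median -0.31), with none higher. S100a8, a calcium-binding protein of neutrophils, read 4.55 and 4.89 in NOD and 6.70 and 6.94 in NOD.scid without the transgene, and 3.64 and 3.34 in NOD and 4.80 and 4.07 in NOD.scid with it. NOD.scid stands above the other groups, the BDC2.5/NOD.scid arrays reach the level of NOD, and the additive fall of 1.81 (SE 0.232, adjusted p = 0.00246 in limma) is thus not a separation of the 4 arrays of each kind. Its partner S100a9 fell by 1.22 (-0.41 in NOD and -2.02 in NOD.scid) and lost its call without any 1 of the 4 scid-background arrays; Ngp, a granule protein, fell by 0.68.

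The mean of 4 neutrophil markers was 4.84 to 4.94 in NOD and 6.39 to 6.40 in NOD.scid without the transgene, and 4.27 to 4.42 in NOD and 4.57 to 4.90 in NOD.scid with it. The globins moved with it in direction: Hba-a1 read 11.10 and 10.92 in NOD and 12.07 and 12.01 in NOD.scid without the transgene, and 10.35 and 10.40 in NOD and 10.83 and 10.93 in NOD.scid with it, and fell by 0.90. Hbb-b2 fell by 1.02 and Alas2, the first enzyme of haem synthesis in red cells, by 0.43. The mean of these 4 markers and the globins thus move with the transgene contrast, both within NOD and within NOD.scid. Their part in other results was not tested. Within NOD, S100a8 (-1.23), S100a9 (-0.41), Hba-a1 (-0.64) and Hbb-b2 (-0.62) were called lower. Camp (-0.12), Ngp (-0.41) and Alas2 (-0.25) did not pass there. The medians of the whole lists were small within NOD. The neutrophil median was 0.02 in NOD and -0.13 in NOD.scid. The erythroid median was -0.02 in NOD and -0.52 in NOD.scid.

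The 30 largest shared genes have the same direction in each background by the way they were chosen, so their sizes are what can be compared. Of the 15 higher genes 14 passed in NOD and 15 in NOD.scid, and the interaction passed for 13 of them. Of the 15 lower genes 15 passed in NOD and 13 in NOD.scid, and the interaction passed for 8. The effect was larger in NOD for 9 of the higher and 10 of the lower genes. The additive value of a gene whose interaction passed is an average of 2 different sizes. For Reg3g, Dmbt1, Gcg, Sst, Iapp, Bex4, Tent5c, Itm2a and Postn the interaction did not pass, which does not make their effects equal. Its unadjusted 95% interval left out zero for Reg3g and Dmbt1, as given above. It also did so for Sst (-0.62 to -0.07), Iapp (-1.09 to -0.17), Itm2a (0.3 to 1.2) and Postn (0.04 to 1.07), but not for Gcg, Bex4 and Tent5c.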

How the data were processed

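RNA of 8 whole-pancreas samples was measured on 1-colour Affymetrix arrays, 2 arrays in each of 4 groups. The deposited values are on a log2 scale, judged from the values (array medians 4.24 to 4.30); no source used here says how the authors normalized them, and they were used as deposited. Groups were taken from the sample titles. Probe sets were named through the platform annotation (10833 with 1 symbol, 396 with several, 1193 with none; symbols updated by gene ID, 0 changed). The 66 array controls were left out.

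Each probe set was fitted with limma 3.58.1 (R 4.3.3; lmFit and eBayes with a variance trend, two-sided) with transgene and scid as additive terms over all 8 arrays (5 residual degrees of freedom, 5.6 of the prior), and p-values were adjusted by Benjamini-Hochberg over 12422 probe sets. Effects within a background and the interaction came from 1 fit of 4 group means. Folds are 2 to the power of the log2 difference. The 15 genes with the largest difference in each direction were named among called, separated genes of the same sign in both backgrounds with a higher-group mean above the median value of 4.27; so were up to 4 called members of each list with the smallest p, a fixed set of marker genes and up to 5 interaction genes in each direction. Other called list members were named after their values were seen. The comparison, the 40 lists (961 of 1177 entries measured) and the alternatives were chosen with earlier results of these data known.

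Simulated data took each probe set's mean over all arrays and the spread within pairs of arrays (12422 probe sets, 5 runs, 200 changed). On these the additive fit recovered 81.6% of changes of 0.5, 99.6% of changes of 1 and all of those of 2 and 3. Of its calls there, 5.08% were false. The simulated data held no scid effect and no difference between backgrounds, which enters the error of this fit in the real data. These shares therefore do not give the recovery or the false share in the real data. Array titles with and without a final 1 were not taken as a pairing. Correlations of same-numbered deviations had mixed signs, from -0.322 (BDC2.5/NOD.scid with NOD) to 0.287 (NOD.scid with NOD). The scatter within pairs may thus be partly shared between groups, and its source was not tested. The number of arrays limits the precision. Alternatives changed the normalization, the filter, the variance prior, the design and the arrays used.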

Additional observations from a re-analysis of the deposited data

Results flagged for a closer look

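The transgene effect differed between the backgrounds for 54 of the 162 genes named or used as markers here. The test was the interaction in limma with Benjamini-Hochberg adjustment, which passed for 444 of all 8251 genes (5.38%). Up to 5 genes in each direction were named because their interaction was among the largest, and others for a large transgene effect. The count of 54 therefore partly reflects how the genes were chosen. Values are the effect in NOD.scid minus that in NOD on the log2 scale, so a negative value is a smaller rise or a larger fall in NOD.scid.

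Among genes that rose in the additive fit the effect was smaller in NOD.scid for 1810009J06Rik (-2.44), Reg3a (-2.20), Itih4 (-1.74), Reg2 (-1.65), Creld2 (-1.52), Reg3b (-1.31), Pla2g1b (-0.74), Hspa5 (-0.72), Dnajc3 (-0.71), Sycn (-0.67) and Hsp90b1 (-0.51). It was larger there for Zfp36 (0.58), Gbp2 (0.65), Hp (0.72), C1qc (0.79), Cebpb (0.91), Ccl8 (0.97), Ccl9 (1.02), Ddit4 (1.17), H2-Ab1 (1.48), H2-K1 (1.74), H2-D1 (1.77) and Lrg1 (2.70).

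Among genes that fell, the fall was larger in NOD.scid for Car2 (-2.18), S100a9 (-1.61), S100a8 (-1.16), Hbb-b2 (-0.82), Ssr2 (-0.77), Ins2 (-0.72), Ndufb8 (-0.54) and Hba-a1 (-0.52), and smaller there for Vtn (0.63), Marcks (0.90), H2az2 (0.91), Ifrd1 (1.22), Ly6e (1.3) and Acaa2 (1.42).

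The remaining 17 were not called in the additive fit. The macrophage markers Cd68 (0.61), C1qa (0.78) and Lyz2 (2.15) and the antigen-presenting genes H2-Eb1 (2.04), Cd74 (2.52), B2m (2.62) and H2-Aa (2.91) were called higher within NOD.scid and not within NOD. Camp (-1.16), a neutrophil granule peptide, had the more negative difference in NOD.scid, and Dcn (1.59) and Adipoq (0.95), the fat cell hormone adiponectin, in NOD. Wdr92 (3.33) was low in NOD.scid alone, at 8.65 and 7.94 against 11.17 to 11.94 on the other 6 arrays. Hemgn (-1.84), a gene of red cell precursors, was high in NOD.scid alone. Pdk4 (2.95), which slows glucose oxidation, fell in NOD and rose in NOD.scid, as did Txnip (3.06) and Igkv6-23 (2.92), while Pdxdc1 (-2.62) did the opposite. Xist gave 3.85, and its values differ widely within the NOD and BDC2.5/NOD.scid pairs.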

How the results depend on the processing

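The counts depended on the design more than on the normalization. Against 518 probe sets called (183 higher, 335 lower, 434 shared), quantile normalization gave 520, centring 588, the filter on dim probe sets 516, no variance trend 530, a robust prior 510 and a term for the actin control 466 (358 of the 518). A fit of 4 group means, which takes the difference between backgrounds out of the error, gave 1308 (537 higher, 771 lower, 759 shared). Without a scid term 206 were called (52, 154 and 206). The replicate block by title number gave 279 (88, 191 and 245). The labels do not say what the numbers stand for, and the cause was not tested. With the 2 BDC2.5/NOD arrays as 1 sample 246 were called (90, 156 and 218). At a threshold of 0.01 there were 151 (47, 104 and 137), and with at least 1 on the log2 scale 47 (25, 22 and 44). Leaving out 1 array gave 241 to 445 called (89 to 134 higher, 152 to 311 lower, 212 to 396 shared) and 147 to 377 interactions against 444: 241 and 260 were called without the first and second BDC2.5/NOD array, 423 and 277 without those of BDC2.5/NOD.scid, 282 and 445 without those of NOD.scid, 323 and 293 without those of NOD. In every such fit 190 of the 518 remained.

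With each pair of arrays averaged, which leaves 1 residual degree of freedom, limma called 5 higher and 0 lower (473 and 691 at an unadjusted p under 0.05). Those called were both Reg3g probe sets, Reg3b, 1 Zbtb16 probe set and 103033_at. The annotation gives 103033_at to both C4a and C4b, so it was not counted as a gene. Zbtb16 was named after its values were seen. Of the 30 largest genes 22 kept their call without each array in turn, and all 30 kept their direction in every refit that holds them (up to 19) and with the median over a gene's probe sets. That median moved 5 of them by more than their standard error: Reg3g to 4.35, Reg3a to 3.48, Reg2 to 1.9, H2-K1 to 0.96 and Ly6e to -0.49. The robust prior ended 9 of these calls, the missing scid term 11, the block 5, the actin term 4 and BDC2.5/NOD as 1 sample 4.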

Other observations

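A probe set that the annotation gives to both C4a and C4b, 103033_at, changed by nearly the same amount in each background. It read 4.72 and 5.03 in NOD and 5.04 and 4.99 in NOD.scid without the transgene, and 8.0 and 8.03 in NOD and 8.07 and 8.14 in NOD.scid with it. The difference was 3.14 in NOD and 3.09 in NOD.scid (additive 3.12, SE 0.08, adjusted p = 8.36e-09 in limma). It was chosen after its values were seen.

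Zbtb16, which encodes the transcription factor PLZF of innate-like lymphocytes and hormone-responsive tissues, rose on 1 of its probe sets: 3.17 and 3.43 in NOD and 3.30 and 3.02 in NOD.scid without the transgene, and 5.29 and 5.16 in NOD and 5.69 and 5.16 in NOD.scid with it. The additive difference there was 2.09 (SE 0.129, adjusted p = 2e-05 in limma), with 1.93 in NOD and 2.26 in NOD.scid. It too was chosen after its values were seen. Another Zbtb16 probe set has a higher mean and stood for the gene in the counts above. The value of that probe set is not given here, so the rise is that of this probe set only.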
